A study of Arabidopsis thaliana with 20 samples.

Results

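In the growing Arabidopsis inflorescence stem, 48 probes, each annotated to 1 gene, gave much lower values from 3 cm below the tip downwards. Every section taken there was compared with the uppermost 2 cm of other, shorter stems, cut on an earlier day. The genes of these probes are called the tip genes here, each by the value of its probe. Other probes of 1 of these genes, AT5G37010, were not low. A gene was included when its log2 ratio over the tip averaged -1.5 or lower in the 3-5, 5-7 and 7-9 cm sections alike and its 3-5 cm mean was less than 1 above its 5-7 cm mean. Of 8037 probes that carry the name of 1 gene and were measured on all 20 arrays, 98 passed these thresholds. Set aside from the 98 were 44 genes for cytosolic ribosomal proteins, the peroxidase gene PRXCA, and AUR2, PRL, HEME1, DI21 and Cpn60beta2, so that 48 remained. The thresholds were met by 306 of all 25270 spots measured on every array, and 205 of those spots are unnamed here. A further 3 of those spots carry the names of several genes.

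RNA came from plants of ecotype Ler grown for 8 weeks with 8 h of light and then moved to 16 h of light. The sections were 0-3, 3-5, 5-7 and 7-9 cm from the tip of stems about 10 cm long, cut on day 14 after the move, and 2-4 cm from the tip of stems about 5 cm long, cut on day 12. Each section was hybridised against the 0-2 cm tip of the 5 cm stems in the other dye, on 4 arrays a section, 2 with the section in Cy5 and 2 with it in Cy3. Flowers, siliques, stem leaves and side branches had been taken off, and a section is a whole piece of stem with epidermis, cortex, vascular tissue and pith together. A lower ratio can therefore come from fewer cells of a type or from less RNA in each cell, which cannot be told apart here. The 3-5, 5-7 and 7-9 cm sections also differ from the tip in stem length and day as well as in position. These differences cannot be told apart.

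A primary stem grows from its tip. Cells are made by the shoot meristem and the dividing tissue just below it, then stop dividing, elongate, and build thick walls in fibres and xylem further down. Dividing and young cells are rich in ribosomes, copy their DNA, pack it with newly made histones, and enlarge small undifferentiated plastids and mitochondria, which need ribosomes and translation factors of their own. Young epidermal and cortical cells also secrete proteins that loosen, decorate or guard the growing wall.

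All values below are the deposited log ratios, read as log2 of section over 0-2 cm tip, with the tip at 0 and negative values lower than the tip. The log base is not stated and is taken as 2. The SD of an array lay between 0.412 and 0.925 and array medians lay between -0.0334 and 0.0380. Arrays of a section were correlated across all spots measured on every array. The r was 0.744 to 0.869 in 3-5 cm, 0.574 to 0.799 in 5-7 cm and 0.651 to 0.820 in 7-9 cm. It was only -0.21 to 0.551 in 0-3 cm and 0.130 to 0.579 in 2-4 cm. The replicates are not said to come from separate plants, so errors measure the spread between arrays. The labels are in conflict on the stem length of 3-5 cm replicate 1 and on the dyes of 5-7 cm replicate 4 and 7-9 cm replicates 2 and 4. The number of arrays limits the precision, and distance from background is not known here.

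The 3-5, 5-7 and 7-9 cm arrays chose the genes, so their values are a description with no test. The median of the 48 section means was -2.04 in 3-5 cm, -2.0 in 5-7 cm and -2.13 in 7-9 cm. Single section means ran from -3.44 to -1.66 in 3-5 cm, from -3.28 to -1.5 in 5-7 cm and from -4.197 to -1.5 in 7-9 cm. Averaged over these 3 sections, the tip genes were 3.00-fold to 10.2-fold lower than in the tip, with a median of 4.2-fold. Of the 48, 47 were below 0 on all 12 arrays and 32 were below -1 on all 12. Of the 48, 39 had 7-9 cm and 3-5 cm means within 0.5 of each other, 7 were lower by 0.5 or more in 7-9 cm, and 2 were higher by that much. AT1G63290 had means of -2.29 in 3-5 cm and -4.197 in 7-9 cm. A gene within 0.5 could still have another mean in the section between, as AT1G33170 did with -2.67, -1.58 and -2.26 in 3-5, 5-7 and 7-9 cm. Its 5-7 cm arrays, at -3.50, -1.4, -0.88 and -0.52, overlapped those of both other sections, so the means alone do not set the sections apart.

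**Figure D1:**
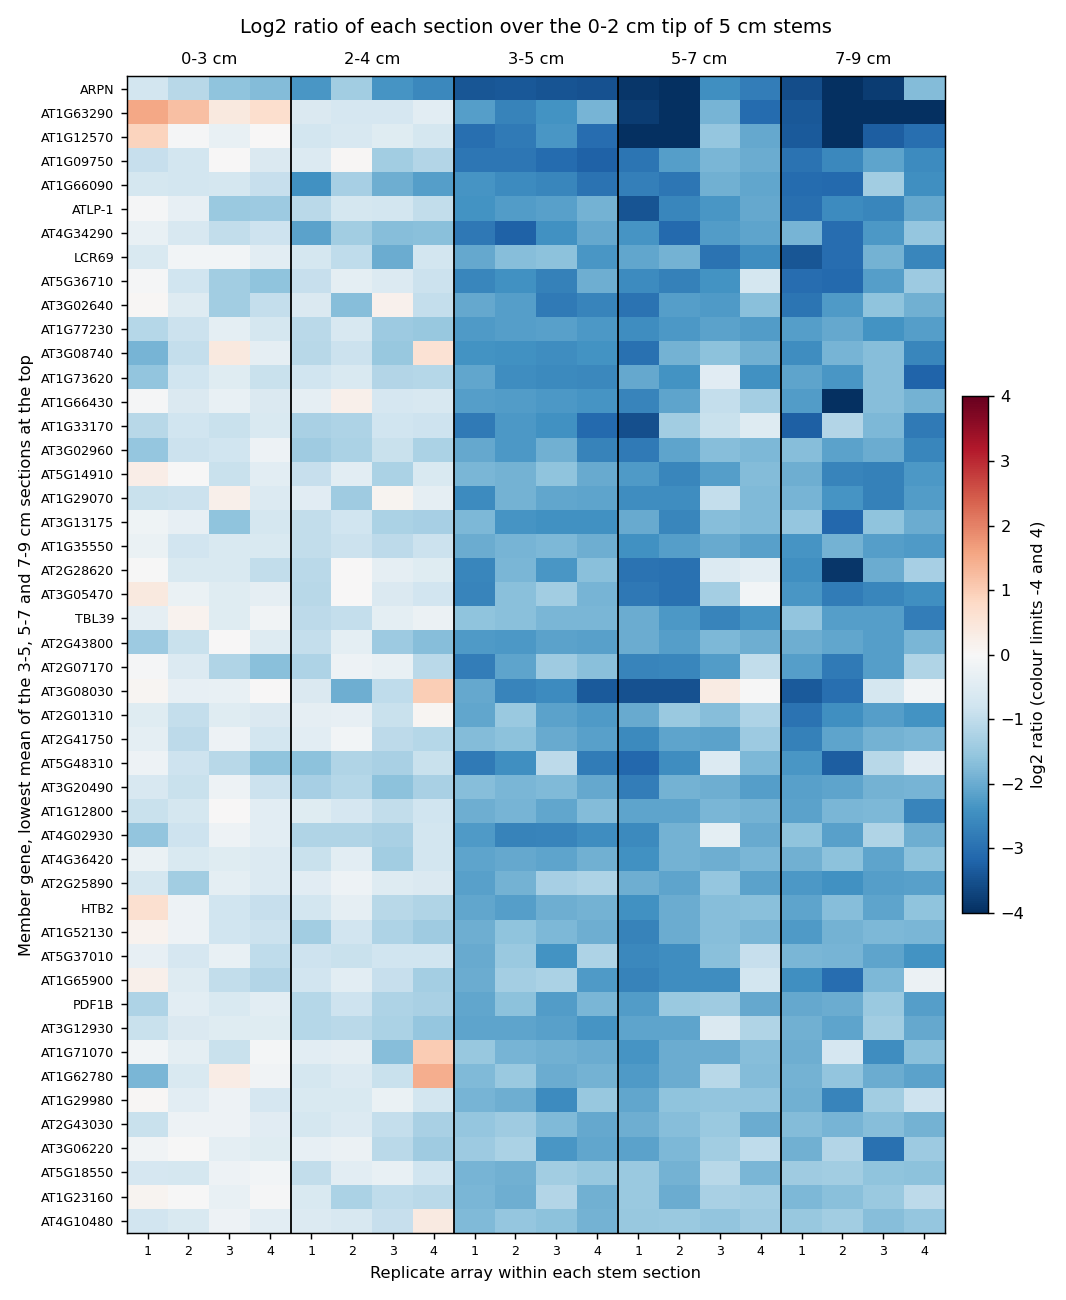
Log2 ratio of each of the 48 tip genes (rows, lowest mean of the 3-5, 5-7 and 7-9 cm sections at the top) on each of the 20 arrays (columns, 4 replicates for each section, sections in order of distance from the tip). Blue is lower than in the 0-2 cm tip and red is higher, with the colour range ending at -4 and 4. The 12 columns of the 3-5, 5-7 and 7-9 cm sections are blue for 47 of the 48 genes throughout, whereas the 0-3 and 2-4 cm columns are paler for most genes. Among the exceptions are ARPN, AT1G66090 and AT4G34290, down to -2.57, -2.44 and -2.13 in 2-4 cm, and AT1G63290, up to 1.54 in 0-3 cm.

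The genes nearest the threshold show how narrow its edge is. Just inside were AT1G23160 (highest of its 3 section means -1.5017), AT4G10480 (-1.5019) and AT3G12930 (-1.5022). Just outside were AT2G30695 (-1.4986), AT3G13120 (-1.4980), which encodes a plastid S10 ribosomal protein, and AT3G47650 (-1.4798). OPS, a gene of phloem formation, was low enough in all 3 sections, at means of -1.84, -3.88 and -4.19, but its 3-5 cm mean was more than 1 above its 5-7 cm mean.

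The 0-3 and 2-4 cm sections had no part in the choice, although they share the 0-2 cm tip RNA with the sections that did. A tip value too high by error would push the ratios of chosen genes down in these sections as well. The counts of both sections against the tip are thus not independent of the choice. In 2-4 cm of the 5 cm stems, all 48 tip genes had a mean below 0, with a median of -0.81 and a range of -2.16 to -0.17. By limma, with Benjamini-Hochberg adjustment over all 25720 tested probes, 31 of 48 were lower than in the tip at an adjusted p under 0.05 and 0 were higher, whereas 6.89% of all tested probes were called lower. Before adjustment, 40 of 48 were lower and 0 higher at p under 0.05. Of the 25720 tested probes, 6728 had such a limma p in either direction. On 4 of 4 arrays, 36 of 48 genes were below 0, against 16.9% of probes. The median of all tested probes in this section was 0.0047, and 49.4% of them were below 0.

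The top 3 cm of the 10 cm stems overlaps the tip in position. The median of the tip genes there was -0.57, with section means from -1.30 to 0.96, and 46 of 48 were below 0. Of all tested probes, 52.8% were below 0. By limma, 12 of 48 were lower and 0 higher at an adjusted p under 0.05, against 1.29% of all tested probes called lower. Without adjustment, 32 were lower and 1, AT1G63290, was higher. Of the 25720 tested probes, 4347 had an unadjusted limma p under 0.05 in either direction. All 4 arrays were below 0 for 30 of 48 genes, against 10.5% of probes. The count depended on single arrays and on the processing. Leaving out replicate 2 of this section gave a count of 1, leaving out replicate 4 gave 3, and leaving out replicate 1 gave 7. Replicate 2 was the only array scanned at 95% laser power, with all others at 90%, and the part of this was not tested. The count was 25 with array weights, 30 with arrays scaled to 1 spread, 32 with the arrays of this section alone and 34 with quantile normalization. Calls over all probes in either direction rose too, from 892 to 2299, 2822, 1984 and 3769 in the same order. AT1G77230, a gene with no role given here, was the 1 gene of the 12 that stayed lower under all 36 settings tried, including each array left out.

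Between the 2-4 cm and the 0-3 cm sections, the reference drops out of the difference, and no array of this comparison chose the genes. The 2 sections differ in distance from the tip and in stem age, which cannot be told apart. The tip genes were lower in 2-4 cm for 37 of 48, with a median difference of -0.36, but 0 of 48 passed the test by limma in either direction, against 0.117% of all tested probes called lower and 0.144% called higher. Before adjustment 13 were lower and 0 higher at p under 0.05. Across all probes 67 were called, 2021 had an unadjusted p under 0.05, and 48.6% had a difference below 0. For 9 of 48 genes, the 4 arrays of 2-4 cm all lay below the 4 arrays of 0-3 cm, an arrangement seen in 1.95% of 25270 probes, and for 0 did they all lie above (2.69% of probes).

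**Figure D2:**
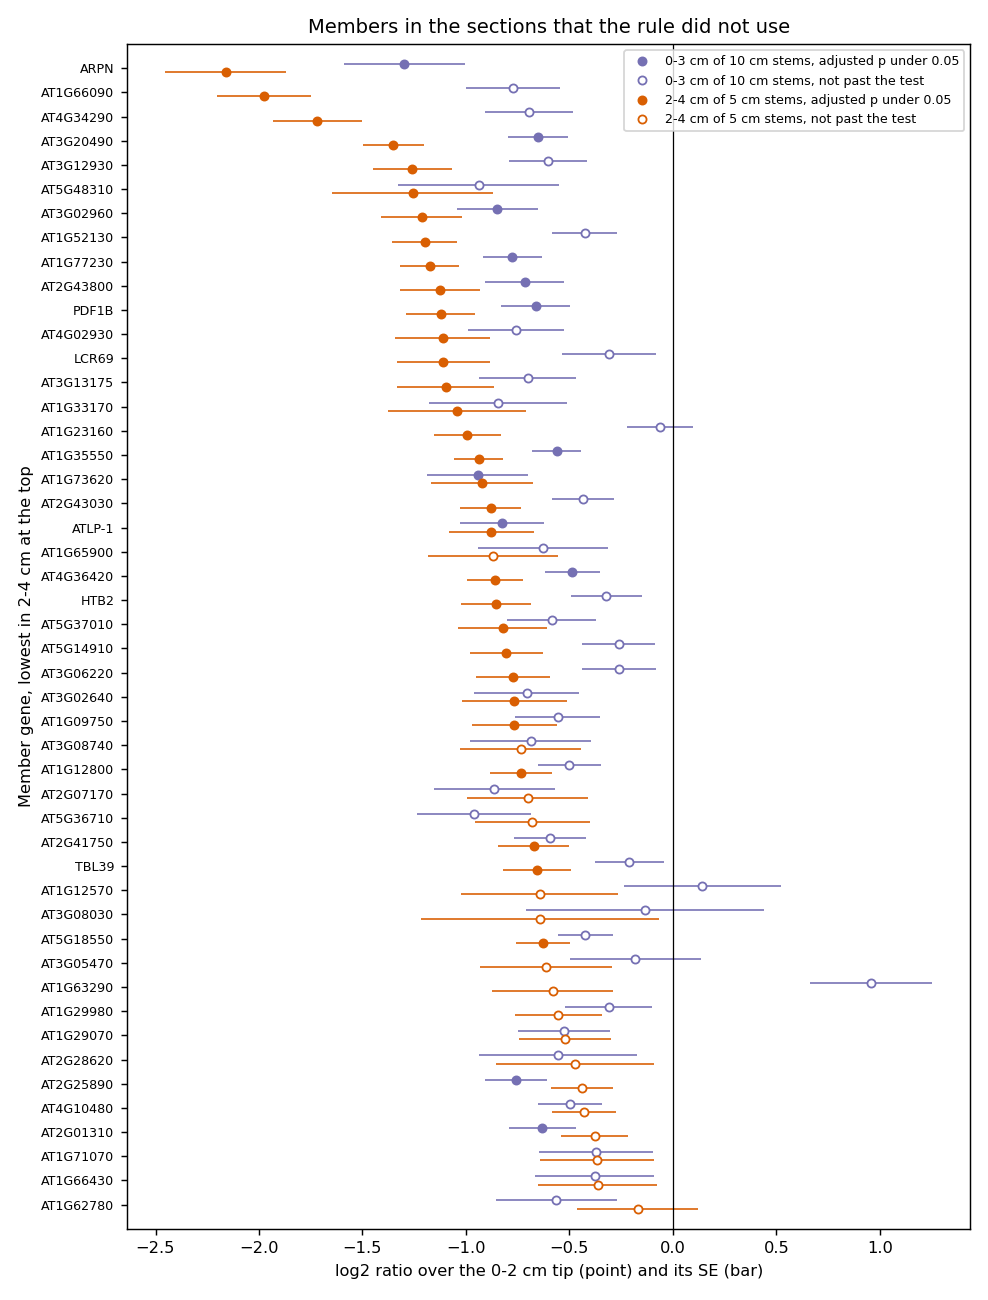
Log2 ratio over the 0-2 cm tip of each of the 48 tip genes, with its SE as a bar, in the 0-3 cm section of 10 cm stems (purple) and in the 2-4 cm section of 5 cm stems (orange), from the limma fit with 4 arrays a section. Filled points have an adjusted p under 0.05: 12 in 0-3 cm and 31 in 2-4 cm, all left of 0. AT1G63290 stands apart at 0.96 in 0-3 cm.

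Among the members, 10 encode proteins of the wall or the secretory path, grouped by hand after their values were known. Over the 3 lower sections their means ran from -3.35 to -1.79, and 3 of 10 were lower in 0-3 cm and 7 of 10 in 2-4 cm. Of all 48 members, 12 were lower in 0-3 cm and 31 in 2-4 cm. Of all tested probes, 1.29% and 6.89% were called lower. The same shares stand beside the counts of the groups below, and differences between groups were not tested. ARPN encodes plantacyanin, a small secreted blue copper protein, and was the lowest of all 48. Its ratios were -0.74, -1.11, -1.60 and -1.74 in 0-3 cm and -2.32, -1.41, -2.35 and -2.57 in 2-4 cm. They were -3.43, -3.38, -3.44 and -3.49 in 3-5 cm, the tightest set of 4 arrays there (SD 0.05), then -3.89, -4.0, -2.46 and -2.76 in 5-7 cm and -3.54, -4.31, -3.80 and -1.74 in 7-9 cm. Every array was below 0, and the 2-4 cm arrays overlapped those of 0-3 cm only at -1.41. By limma ARPN was lower by -2.16 ± 0.29 (SE, adjusted p = 3.98e-05) in 2-4 cm and by -1.30 ± 0.29 (adjusted p = 0.0135) in 0-3 cm. The call in 0-3 cm was lost without replicate 2, 3 or 4 of that section (adjusted p = 0.0509 to 0.0953).

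ATLP-1 and AT1G73620 encode thaumatin-like proteins, a family of secreted proteins first known from plant defence. ATLP-1 had -0.04, -0.32, -1.5 and -1.44 in 0-3 cm and -1.07, -0.72, -0.75 and -0.97 in 2-4 cm. The 0-3 cm arrays thus fell on both sides of the 2-4 cm arrays, with the Cy5 arrays high and the Cy3 arrays low. Its probe has a low spot number. Over all spots of low number the 0-3 cm medians were 0.27 and 0.04 on the Cy5 arrays. They were -0.20 and -0.13 on the Cy3 arrays, so dye and place on the array cannot be told apart here. ATLP-1 was lower in both sections by limma, at -0.83 ± 0.20 in 0-3 cm (adjusted p = 0.0248) and -0.88 ± 0.20 in 2-4 cm (adjusted p = 0.0060), but the call in 0-3 cm was lost without replicate 2, 3 or 4 and that in 2-4 cm without replicate 1. AT1G73620 stood at -0.94 ± 0.24 in 0-3 cm (adjusted p = 0.0333) and at -0.92 ± 0.24 in 2-4 cm (adjusted p = 0.0148). Leaving out any 1 of the 4 arrays of 0-3 cm lost the first call (adjusted p = 0.0515 to 0.160), and leaving out replicate 3 or 4 of 2-4 cm lost the second.

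LCR69, also named PDF2.2, encodes a small cysteine-rich protein of the defensin type. Its ratios were -0.69, -1.03, -1.98 and -0.73 in 2-4 cm and -0.61, -0.10, -0.10 and -0.42 in 0-3 cm, so that the sections did not overlap. It was lower in 2-4 cm by -1.11 ± 0.23 (limma adjusted p = 0.0022), and the difference from 0-3 cm was -0.80 ± 0.32 (adjusted p = 0.501). LCR69 was lower the further the section from the tip, at means of -1.93 ± 0.32, -2.36 ± 0.47 and -2.75 ± 0.66 (SD, n = 4) in 3-5, 5-7 and 7-9 cm, though the arrays of these sections overlapped.

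AT1G09750, an aspartyl protease family gene, was lower in 2-4 cm (-0.77 ± 0.20, limma adjusted p = 0.0153), a call lost without 2-4 cm replicate 3 or 4. Its 4 arrays in 3-5 cm, at -2.90, -2.90, -3.08 and -3.25, were lower than 3 of the 4 arrays in each of the sections further down. TBL39, of the family of wall polysaccharide acetyltransferases named for trichome birefringence, had -1.05, -0.95, -0.38 and -0.25 in 2-4 cm. It was lower there at -0.66 ± 0.17 (adjusted p = 0.0110), a call lost without replicate 1 or 2. AT1G33170, a methyltransferase family gene, was called lower in 2-4 cm at an adjusted p of 0.0413 and lost the call without any 1 of the 4 arrays of that section (0.0707 to 0.182) or without 0-3 cm replicate 2 (0.0512).

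The remaining wall genes did not pass the test in the upper sections. AT1G29980 and AT3G08030 encode DUF642 proteins, which attach to the wall, and had means of -0.55 and -0.64 in 2-4 cm. AT3G08030 was the least steady of all 48: it had -3.48, -3.50, 0.33 and -0.03 in 5-7 cm, where replicates 1 and 2 were scanned at a photomultiplier setting of 62 and replicates 3 and 4 at 63. In 7-9 cm it had -3.36, -3.02, -0.70 and -0.12, split between the same settings. Its SD was 2.11 in 5-7 cm and 1.63 in 7-9 cm, and it was the 1 gene above 0 on an array of the 3 lower sections. AT1G71070, of a glycosyltransferase family, had 1.01 on replicate 4 of 2-4 cm against -0.43, -0.36 and -1.69 on the other 3 arrays there.

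Another 8 members take part in protein synthesis inside plastids or mitochondria. Plastid genes were AT2G43030 (ribosomal protein L3), AT1G29070 (ribosomal protein L34), AT3G08740 (elongation factor P) and PDF1B (peptide deformylase). AT3G12930 (an Iojap-related ribosome-associated protein) and AT1G12800 (an RNA-binding S1 domain protein) were plastid genes too. AT4G02930 encodes elongation factor Tu of mitochondria, and AT4G36420 an organelle-type ribosomal L12 family protein. Their means over the 3 lower sections ran from -2.2302 to -1.7536. In 2-4 cm 6 of 8 were lower and in 0-3 cm 2 of 8, PDF1B and AT4G36420. The call of AT4G36420 in 0-3 cm (adjusted p = 0.0467 by limma) was lost in 15 of the fits that left out 1 array, whereas its call in 2-4 cm (-0.86 ± 0.13, adjusted p = 0.000184) was kept in all of them.

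AT3G12930 was the lowest of these 8 in the 2-4 cm section, with -1.14, -1.08, -1.28 and -1.55 in 2-4 cm and -0.88, -0.56, -0.50 and -0.47 in 0-3 cm. All 4 arrays of 2-4 cm lay below all 4 of 0-3 cm. It was lower in 2-4 cm by -1.26 ± 0.19 (limma adjusted p = 0.000128), and the difference between the sections was -0.65 ± 0.27 (adjusted p = 0.523). PDF1B was lower in 2-4 cm by -1.12 ± 0.17 (adjusted p = 0.000113), with -1.14, -0.81, -1.24 and -1.30 on the 4 arrays. In 0-3 cm it had -1.23, -0.41, -0.60 and -0.41 and was called at an adjusted p of 0.0281, which was lost without any 1 of those 4 arrays (0.0613 to 0.17).

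AT2G43030 had -0.70, -0.54, -0.97 and -1.31 in 2-4 cm (-0.88 ± 0.15, limma adjusted p = 0.000412), and its 7-9 cm arrays, from -1.88 to -1.70, were the steadiest of any member there (SD 0.09). AT4G02930 and AT1G12800 were lower in 2-4 cm at -1.11 ± 0.23 and -0.73 ± 0.15 (adjusted p = 0.0025 and 0.0024). AT1G29070 and AT3G08740 were not called in either upper section, and their arrays there disagreed in sign. AT3G08740 had -1.85, -0.94, 0.40 and -0.36 in 0-3 cm and -1.12, -0.87, -1.52 and 0.58 in 2-4 cm, whereas in 3-5 cm its arrays were between -2.5 and -2.38.

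A list of plastid ribosomal protein genes, written by hand after the members were known, had 5 measured genes, of which 2 are members. In 2-4 cm 3 of 5 were lower and 0 higher, with a median of -0.75, and in 0-3 cm 0 of 5 were called, with a median of -0.43. AT1G64510 was the exception of the 5, at 0.06 in 2-4 cm and -0.67, -0.72 and -0.59 in the lower sections. As the members set the list's direction in part, it adds no separate evidence.

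Members of the cytoskeleton and chromatin were AT2G28620, a kinesin-5 motor that keeps spindle poles and microtubule bundles apart, the formins AT2G43800 and AT3G05470, which nucleate actin filaments, and HTB2, a core histone H2B gene. HTB2 had -0.73, -0.37, -1.10 and -1.21 in 2-4 cm (-0.85 ± 0.17, limma adjusted p = 0.0019), against 0.63, -0.21, -0.80 and -0.91 in 0-3 cm, where it was not called. In the lower sections its section means were -2.03 ± 0.14, -1.95 ± 0.35 and -1.88 ± 0.26 (SD, n = 4), and the arrays of these sections overlapped. Of 5 core histone genes found by name, HTB2 was the 1 called in 2-4 cm, and HIS4 was the 1 called in 0-3 cm (-0.58, limma adjusted p = 0.0103). HTB1, the other H2B gene measured, had means between -0.36 and -0.08 in all 5 sections.

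AT2G43800 was lower in 2-4 cm (-1.13 ± 0.19, limma adjusted p = 0.000474) and in 0-3 cm (-0.72 ± 0.19, adjusted p = 0.0402). The call in 0-3 cm was lost without replicate 1, 2 or 4 of that section and, narrowly, without 3-5 cm replicate 1 or 2, 5-7 cm replicate 4 or 7-9 cm replicate 1 (0.0503 to 0.052). In 5-7 and 7-9 cm its arrays stayed between -2.20 and -1.81. The other formin, AT3G05470, spread from -3.0 to -0.11 in 5-7 cm and was called in neither upper section. AT2G28620 had -2.95, -3.0, -0.56 and -0.42 in 5-7 cm, again with replicates 1 and 2 low and replicates 3 and 4 high, and was not called in either upper section.

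Of 4 metabolic genes, 0 were called in 2-4 cm, and 1 in 0-3 cm. AT1G63290 encodes a ribulose-phosphate 3-epimerase, an enzyme of the pentose phosphate pathway, and had the widest course of all 48. Its ratios were 1.54, 1.21, 0.40 and 0.68 in 0-3 cm, all above the tip, and -0.56, -0.67, -0.68 and -0.41 in 2-4 cm, all below it. They went on to -2.22, -2.68, -2.40 and -1.85 in 3-5 cm, -3.79, -4.40, -1.85 and -3.08 in 5-7 cm and -3.38, -5.37, -4.0 and -4.04 in 7-9 cm. The estimate of 0.96 ± 0.29 in 0-3 cm did not pass the test (limma adjusted p = 0.0771), nor did -0.58 ± 0.29 in 2-4 cm (0.218). The 2-4 minus 0-3 cm difference of -1.54 ± 0.42 was the largest of the 48 in size (limma adjusted p = 0.169), and the arrays of these sections did not overlap. It passed in 4 alternatives, with arrays scaled to 1 spread, quantile normalization, the arrays of the 2 sections alone and 1 of 2 ways of grouping replicates into random blocks (adjusted p = 0.0025 to 0.0353).

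AT1G12570, of the GMC oxidoreductase family, had a like course with larger SEs. Its ratios were -0.74, -0.65, -0.49 and -0.69 in 2-4 cm, against 0.91, -0.05, -0.30 and 0.01 in 0-3 cm, without overlap, but neither section nor their difference (-0.79 ± 0.54, limma adjusted p = 0.794) passed the test. In the lower sections it had means of -2.81 ± 0.33, -3.16 ± 1.61 and -3.68 ± 0.92 (SD, n = 4). Its SD was 0.53 in 0-3 cm and 0.11 in 2-4 cm, beside 0.51 and 0.13 for AT1G63290. The SE takes in the spread of all sections, the lower ones included. AT1G66430, of the pfkB sugar kinase family and a fructokinase of plastids, was close to the tip level in both upper sections, at -0.38 ± 0.29 in 0-3 cm and -0.36 ± 0.29 in 2-4 cm (SE), with 3-5 cm arrays from -2.35 to -2.21. AT2G25890, an oleosin gene, had -0.69, -1.41, -0.40 and -0.53 in 0-3 cm (-0.76 ± 0.15, limma adjusted p = 0.0052, lost without replicate 2) and -0.44 ± 0.15 in 2-4 cm (adjusted p = 0.0567).

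**Figure D3:**
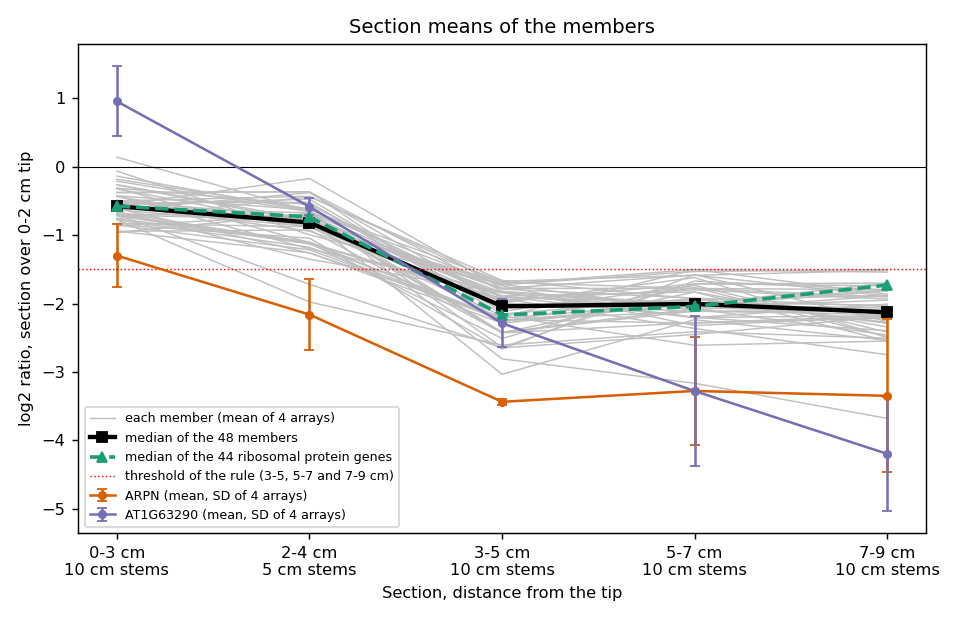
Mean log2 ratio over the 0-2 cm tip of each tip gene (grey lines, 4 arrays a section) by section on the horizontal axis, in order of distance from the tip, the 2-4 cm section being from 5 cm stems and the others from 10 cm stems. The black line is the median of the 48, at -0.57, -0.81, -2.04, -2.0 and -2.13, and the green dashed line is the median of the 44 ribosomal protein genes past the same thresholds. ARPN and AT1G63290 are drawn with the SD of 4 arrays: ARPN is lowest in both upper sections, and AT1G63290 goes from above the tip in 0-3 cm to the lowest mean of all in 7-9 cm.

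Regulators and other proteins with a known domain made up 10 members, of which 8 were lower in 2-4 cm and 2 in 0-3 cm. AT1G66090, of the TIR-NBS class of immune receptor genes, was near the level of the lower sections in 2-4 cm. Its ratios there were -2.44, -1.31, -1.95 and -2.21, against -0.71, -0.74, -0.70 and -0.94 in 0-3 cm, and its mean over the 3 lower sections was -2.51. It was lower in 2-4 cm by -1.98 ± 0.23 (limma adjusted p = 5.75e-06), and the difference of -1.20 ± 0.32 between the sections had an adjusted p of 0.157, which came to 0.0106 with arrays scaled to 1 spread and lay between 0.0241 and 0.0432 in 3 other alternatives. AT4G34290, with a SWIB/MDM2 domain, was of a like size, with -2.13, -1.38, -1.70 and -1.66 in 2-4 cm and -0.29, -0.65, -1.0 and -0.84 in 0-3 cm, without overlap. It was lower in 2-4 cm by -1.72 ± 0.21 (adjusted p = 1.48e-05).

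AT1G23160, of the GH3 family whose members join amino acids to auxin and related acids, had -0.61, -1.28, -1.01 and -1.07 in 2-4 cm, against 0.12, -0.01, -0.30 and -0.06 in 0-3 cm, without overlap. It was lower than in the tip in 2-4 cm by -0.99 ± 0.16 (limma adjusted p = 0.000256). The difference of -0.93 ± 0.23 had the smallest p of the 48 (limma adjusted p = 0.0977). With the arrays scaled to 1 common spread it passed (adjusted p = 0.0124), as it did with quantile normalization (0.0045), with local spot medians removed (0.0434) and with the same random blocks (0.0253). With arrays scaled to 1 spread, the differences of AT1G52130, AT4G34290 and AT3G20490 passed as well (adjusted p = 0.0396, 0.0437 and 0.0318).

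AT1G52130, a jacalin lectin gene, had -1.39, -0.78, -1.22 and -1.41 in 2-4 cm against 0.15, -0.20, -0.80 and -0.86 in 0-3 cm. It was lower in 2-4 cm (-1.20 ± 0.16, limma adjusted p = 2.8e-05). AT3G02960, with a heavy-metal-associated domain, was lower in 2-4 cm (-1.21 ± 0.20, adjusted p = 0.000253) and in 0-3 cm (-0.85 ± 0.20, adjusted p = 0.0153), where the call was lost without replicate 1, 2 or 3. AT1G35550, with the C-terminal domain of elongation factor Tu, was among the steadiest genes: its 12 arrays of the lower sections lay between -2.43 and -1.78. It was lower in 2-4 cm by -0.94 ± 0.12 (adjusted p = 1.73e-05) and in 0-3 cm by -0.56 ± 0.12 (adjusted p = 0.0085), lost without 0-3 cm replicate 2 or 4.

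AT3G06220, of the B3 family of DNA-binding proteins, and AT5G18550, with CCCH zinc fingers, were lower in 2-4 cm (limma adjusted p = 0.0059 and 0.0026), the first lost without 2-4 cm replicate 4. AT4G10480, an alpha subunit of the nascent polypeptide-associated complex that meets new proteins at the ribosome, was called in neither upper section (-0.50 ± 0.15 in 0-3 cm and -0.43 ± 0.15 in 2-4 cm, adjusted p = 0.0808 and 0.0715). In the 3 lower sections its arrays kept between -1.89 and -1.38. AT2G07170, with armadillo repeats, was not called either, and its 0-3 cm arrays ran from -1.67 to -0.04.

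The last 12 members are given by locus alone. Of these, 8 were lower in 2-4 cm and 3 in 0-3 cm. AT3G20490 had -1.33, -1.13, -1.65 and -1.29 in 2-4 cm and -0.65, -0.89, -0.20 and -0.87 in 0-3 cm, without overlap. It had the smallest adjusted p of the 48 in 2-4 cm (-1.35 ± 0.15, limma adjusted p = 2.89e-06) and was lower in 0-3 cm (adjusted p = 0.0132), lost without 0-3 cm replicate 2 or 4. AT1G77230 had -1.08, -0.65, -1.45 and -1.52 in 2-4 cm and -1.15, -0.86, -0.40 and -0.69 in 0-3 cm. Both sections were lower (adjusted p = 9.86e-06 and 0.0027), and the 12 arrays of the lower sections lay between -2.47 and -2.05.

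AT5G48310 was called lower in 2-4 cm (-1.26 ± 0.39, limma adjusted p = 0.0358) but lost the call without any 1 of the 4 arrays of that section (adjusted p = 0.0751 to 0.146). AT3G02640 stood at the threshold: it had -0.59, -1.69, 0.18 and -0.96 in 2-4 cm with an adjusted p of 0.0487, and 21 of 35 alternatives lost the call, among them the fit without 2-4 cm replicate 2 (0.398). AT5G36710 (-0.68 ± 0.28 in 2-4 cm and -0.96 ± 0.28 in 0-3 cm) and AT1G62780 (-0.17 ± 0.29 in 2-4 cm) were called in neither upper section. AT1G62780 had -0.70, -0.55, -0.88 and 1.46 in 2-4 cm, so that the last array decided its mean. AT2G01310 was lower in 0-3 cm (-0.63 ± 0.16, adjusted p = 0.0326), lost without 0-3 cm replicate 1, 2 or 4, and not called in 2-4 cm (-0.38 ± 0.16). Of the other members in this group, AT5G14910 (-0.81), AT3G13175 (-1.10) and AT2G41750 (-0.67) were lower in 2-4 cm (adjusted p = 0.0040, 0.0032 and 0.0121), the last lost without 2-4 cm replicate 3 or 4, and AT1G65900 was not called (-0.87, adjusted p = 0.0711).

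Of the 31 calls in 2-4 cm, 10 were lost when some 1 array was left out, and 20 stood under all 36 settings.

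AT5G37010 is the 1 member with further probes, and they disagreed. The member probe had -2.01, -1.5, -2.40 and -1.24 in 3-5 cm and means of -1.92 ± 0.77 in 5-7 cm and -2.04 ± 0.26 in 7-9 cm (SD, n = 4). A second probe of the locus went the opposite way, with means of -0.12, 0.41, 1.14, 1.46 and 1.65 from 0-3 to 7-9 cm. The other stayed near 0, at -0.11, 0.05, -0.09, -0.31 and 0.03, with 1 array missing in 7-9 cm. Which probe stands for the transcript cannot be told from these files, so the low values hold for the member probe and not for the gene, although by limma that probe was lower in 2-4 cm (adjusted p = 0.0138), a call lost without 2-4 cm replicate 1 or 2.

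**Figure D4:**
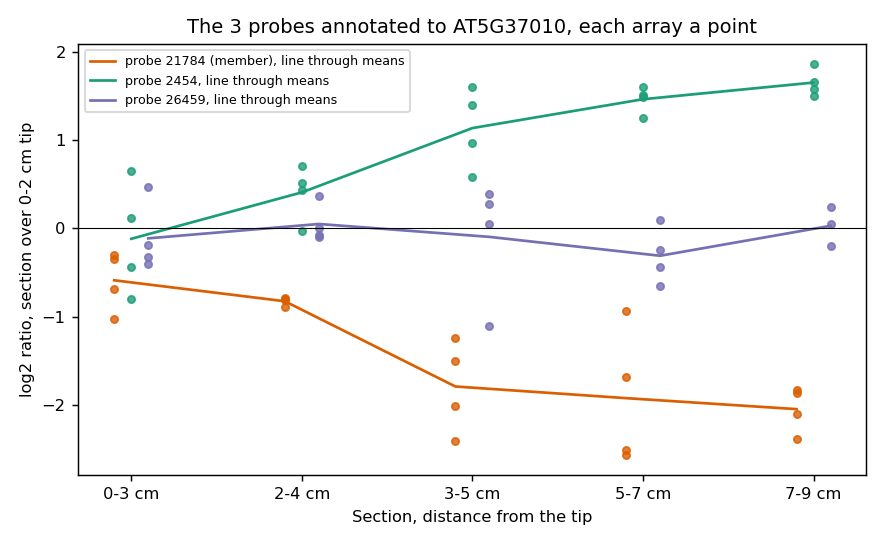
Log2 ratio over the 0-2 cm tip for the 3 probes annotated to AT5G37010 (vertical axis) by section (horizontal axis), with a point for each array and a line through the section means. The member probe (orange) lies near -2 in 7-9 cm, the second (green) at 1.65 and the third (purple) near 0.

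The 44 cytosolic ribosomal protein genes past the same thresholds are set beside the tip genes here, and the difference between the sets was not tested. Their medians were -0.57 in 0-3 cm, -0.73 in 2-4 cm, -2.17 in 3-5 cm, -2.04 in 5-7 cm and -1.73 in 7-9 cm, beside -0.57, -0.81, -2.04, -2.0 and -2.13 for the tip genes. By limma 24 of 44 were lower in 2-4 cm and 11 of 44 in 0-3 cm, beside 31 of 48 and 12 of 48. Of all tested probes 6.89% and 1.29% were called lower in these sections. In 2-4 cm replicate 4 the median was -0.85 over the tip genes and -0.28 over the ribosomal genes.

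Technical groupings moved with some of these values. At photomultiplier settings of 62 and 60 the tip genes had a median of -2.34 in 5-7 cm (2 arrays) and -2.22 in 7-9 cm (2 arrays), and at 63 and 60 medians of -1.73 and -1.97 (2 arrays each). The 2-4 cm arrays alone were scanned at 62 and 59 and the 3-5 cm arrays alone at 62 and 61, so there section and setting cannot be told apart. With the section in Cy5 or Cy3 the medians were -0.51 and -0.49 in 0-3 cm, -0.71 and -0.94 in 2-4 cm, and -2.11 and -2.03 in 3-5 cm. On 0-3 cm replicate 1 the 27 tip genes with low spot numbers had a median of -0.04 and the 21 with high spot numbers -0.89, where all spots had 0.27 and -0.29. On 0-3 cm replicate 3 the order was the opposite, at -0.70 and -0.30, where all spots had -0.20 and 0.20. Over all spots replicate 2 had 0.04 and -0.08 and replicate 4 had -0.13 and 0.10. In 0-3 cm this order thus changed with the dye. The probe of ATLP-1 has a low spot number and that of AT3G08740 a high one, and the part of this in single genes was not tested. Dye was a term of the fit. Without that term 28 members were lower in 2-4 cm and 7 in 0-3 cm by limma, and without the arrays whose labels conflict on dye 33 and 13 were. With local spot medians removed 32 were lower in 2-4 cm and 17 in 0-3 cm. Over all probes, in either direction, 3478 were called in 2-4 cm and 892 in 0-3 cm in the main fit. These became 2671 and 617 without the dye term and 3408 and 929 without the conflicting arrays. With local spot medians removed they became 4118 and 1257. The part of the scanner setting in the results was not tested.

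Markers of particular tissues were few on the annotated array, and none of those listed for the shoot meristem or for floral organs was measured, so the presence of those tissues cannot be checked. AMS and SPL, of anther development, had section means between -0.47 and 0.29 and were not called in the upper sections (limma adjusted p = 0.0846 to 0.877). GUT2, of xylan synthesis in fibre and xylem walls, stayed between -0.37 and 0.08. OPS, the 1 phloem gene measured, was low with the tip genes in the lower sections, at -1.84, -3.88 and -4.19, and was not called in the upper ones, at -0.38 in 0-3 cm and -0.08 in 2-4 cm (limma adjusted p = 0.328 and 0.845). RCA, the rubisco activase gene of green tissue, had 0.44, 0.12, 0.51, -0.36 and -1.0 from 0-3 to 7-9 cm. The 1 gene matched by the epidermal name FDH is AT5G14780, which encodes formate dehydrogenase and is no marker. Their part in the results was not tested.

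Other lists, searched by gene symbol, held few measured genes. Of 3 tubulin genes 0 were called in either upper section, with medians of -0.16 in 0-3 cm and -0.11 in 2-4 cm. TUBG1, gamma tubulin, had -1.19, -1.55 and -1.35 in the 3 lower sections. Of 4 YABBY and TCP genes, found by a search that also covered homeobox factors, 1 was lower (YAB2, -0.59, limma adjusted p = 0.0042) and 1 higher (TCP15, 0.58, adjusted p = 0.0083) in 2-4 cm. Both genes named as translation factors, AT1G29550 and EIF4A-2, lay between -0.42 and 0.30 in all sections. Of 4 genes for chaperonins and other folding proteins, 1, Cpn60beta2, was lower in 2-4 cm (-1.05, adjusted p = 0.0215), and it is among the genes set aside. Of 2 cell cycle genes, CYCJ18 kept between 0.01 and 0.17, and PRL, a subunit of the replicative helicase that was also set aside, was not called in the upper sections.

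The tip genes lay on all 5 chromosomes: 18 on chromosome 1, 9 on chromosome 2, 9 on chromosome 3, 4 on chromosome 4 and 7 on chromosome 5, for the 47 matched by gene ID. In percent these were 38.3, 19.1, 19.1, 8.5 and 14.9, where all probes with 1 gene had 44.2, 28.2, 17.1, 3.9 and 6.6. No pair of members were neighbours, and the closest pair had 18 genes between them. The median gene length was 2100 bases for the members and 2107 bases for all probes with 1 gene.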

How the data were processed

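The series matrix table holds the authors' log ratios for 28800 spots on 20 arrays. Per the labels the arrays were scanned with a ScanArray Express scanner; no source used here gives the background correction, normalization, centring or log base. The deposited values were taken as log2 ratios of section over 0-2 cm tip, the order of the titles. Of the spots, 3061 were blank on all arrays. The platform annotation named 8519 probes, 8338 with 1 gene, of which 8302 matched RefSeq TAIR10.1 by gene ID.

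Section means chose the members. Cytosolic ribosomal loci were listed by hand. The members, gene lists and role groups were chosen with earlier results of these data known, and roles of genes given by locus number are general knowledge, since the name tables hold none for them.

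Tests used limma 3.58.1 in R 4.3.3 on all 25720 probes measured on at least 3 arrays of each section. The fit had a mean for each section and a term for dye (0.5 or -0.5), with 14 residual degrees of freedom, eBayes, and Benjamini-Hochberg adjustment at 0.05. SEs are of that fit and SDs are over 4 arrays. The fit takes 1 spread per gene from all 20 arrays. The SEs and calls of the upper sections thus carry the spread of the lower sections too. Figures and summaries used Python 3.11.15. The fit was run on simulated data with independent noise on each array, and the outcome is not given here. Those data hold no effect of spot position, scanner setting or shared tip RNA, so they cannot show what these do to the calls. Named members were the 10 lowest over the 3 lower sections, the 8 lowest and 4 highest in 2-4 cm, the 5 with the largest change among those called in 0-3 cm, those in a list or with several probes, and the 3 nearest the threshold; the others are described by role. Alternatives were scaling, dye term, array weights, blocks, filters, left-out arrays and, added after seeing the data, removal of the median of each run of 600 spots. Replicate numbers were not taken to pair arrays. The residuals of arrays with the same number correlated at -0.2223 to 0.2478, and between 5-7 and 7-9 cm at 0.0046 to 0.2478. Values for arrays with different numbers are not given here, so pairing is not settled. Promoter motifs were not analysed here.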

Additional observations from a re-analysis of the deposited data

Results flagged for a closer look

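In 130 groups of 4 arrays (the named members in each section and the medians of all members), 4 had 1 array set apart from the other 3 by more than the 95% critical value of Dixon's test, or 3.1% of groups, where chance gives about 1 in 20. AT1G12570 had -5.04 in 7-9 cm replicate 2, against -3.36, -3.30 and -3.02 on the other arrays. AT5G36710 had -0.69 in 5-7 cm replicate 4, against -2.53, -2.70 and -2.38. AT1G62780 had 1.46 in 2-4 cm replicate 4, against -0.70, -0.55 and -0.88. AT1G23160 had -1.19 in 3-5 cm replicate 3, against -1.83, -1.95 and -1.93. In 3 of these 4 cases the other arrays of the section were on the same side of 0 as the array set apart.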

How the results depend on the processing

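The number of tip genes lower in 2-4 cm stayed within 1.5 times the reported 31 under all 35 alternatives (25 to 32 with 1 array left out, 40 with arrays scaled to a common spread). In 0-3 cm the reported 12 became 7 without the dye term, 30 with arrays scaled to a common median absolute deviation, 34 with quantile normalization, 25 with array weights, 32 with the arrays of that section alone, 7 with a trended robust prior, 5 with replicates 1 and 2 against 3 and 4 as random blocks, 25 with 1 and 3 against 2 and 4, and 1 to 15 with 1 array left out. For 2-4 minus 0-3 cm the reported 0 became 6 with scaling, 3 with quantile normalization, 1 with array weights, 1 with the arrays of the 2 sections alone, 3 with blocks of 1 and 3 against 2 and 4, and 1 with block medians removed; it stayed 0 with each array left out. The medians of members moved to -0.733 and -0.911 in 0-3 cm and to -1.053 and -1.121 in 2-4 cm with scaling and quantile normalization. Of all probes, 892 were called in 0-3 cm, and 2822 with scaling, 3769 with quantile normalization, 2299 with weights, 1984 with that section alone, 466 and 1974 with the 2 kinds of random block, and 336 to 1002 with 1 array left out. The 3478 called in 2-4 cm became 6202, 5982 and 5327 with scaling, quantile normalization and weights, 2169 with blocks of 1 and 2 against 3 and 4, and 1994 to 3864 with 1 array left out. The 67 called for the difference became 36 without dye, 476, 509 and 245 with scaling, quantile normalization and weights, 24 and 231 with the random blocks, and 31 to 89 with 1 array left out. With the replicate number as a block, 13, 32 and 0 members and 850, 3302 and 43 probes were called. Whether the numbers pair the arrays is not settled. The rule gave 95 members at the laxer of 2 other thresholds, 31 with scaling and 27 with quantile normalization, all 31 and all 27 among the 48, and 38 to 56 with 1 array left out. Over the 24 calls of named members, 12 kept past the threshold under all alternatives, and none reversed. The causes were not tested. Spot signals over background were not used here, so whether low ratios reach the detection limit is unknown.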
